A study of Schizosaccharomyces pombe 972h- with 4 samples.

Results

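The 34 genes described here encode proteins of the mitochondrial ribosome, mitochondrial translation factors, proteins of the mitochondrial import machinery and proteins that organise the inner membrane of the fission yeast Schizosaccharomyces pombe. They were chosen by symbol, as the array targets whose gene symbol begins with mrp, rsm, img, mef, tuf1, tsf1, tim, tom or mic, out of 4997 targets on the array. By these prefixes 20 are counted as ribosome genes, 4 as translation factors (mef1, mef2, tsf1 and tuf1), 8 as import genes and 2 as inner-membrane genes (mic19 and mic26). Symbols could be given to 1376 targets only, and 59 of the 93 genes in the gene table that meet the rule are not analysed here. Of the 34 genes, 19 lie on chromosome II and 15 on chromosome III. The product of 3 of them lies outside the class of its symbol: rsm1 is annotated as an RNA export factor, tim11 as subunit e of the ATP synthase, and tim18 has sdh4, a succinate dehydrogenase gene, as a synonym.

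Mitochondria carry their own small genome, and the few proteins it encodes are made on a separate ribosome inside the organelle. The ribosomal proteins themselves, and the elongation factors that deliver tRNA and move the ribosome along the message, come almost wholly from nuclear genes. They are made in the cytosol and brought in through the TOM channel of the outer membrane and the TIM channels of the inner membrane. MICOS, a complex of the inner membrane, shapes the cristae, the folds that hold the respiratory chain.

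Transcript levels were measured on NimbleGen arrays of 60-base probes in 2 strains, wt (972h-) and Ofd2Δ, in which a KAN cassette replaces the gene of the dioxygenase Ofd2. Both strains were grown at exponential phase in rich glucose medium and then kept for 90 min in normal oxygen (20%) or in hypoxia (less than 1% oxygen). RNA of 2 experiments was pooled before labelling and hybridised to 1 array per condition, 4 arrays in all, so that no test was possible and a single deletion strain stands for the loss of Ofd2. The comparisons ask how transcript levels change with oxygen in each strain, and whether the change differs when Ofd2 is missing.

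Every target was read by 7 probes in each of 2 blocks of the array, 14 spots in all. The values are intensities normalised over the 4 arrays, a hypoxia ratio is the level in hypoxia over that in normal oxygen (the mean of the 2 block ratios), and a strain ratio is Ofd2Δ over wt. The difference between block ratios and the SD over the 14 spots measure technical spread only. The normalised levels are relative to the other targets of an array, and fewer cells carrying a transcript and less of it per cell cannot be told apart. The Ofd2Δ hypoxia array had a median gene spot of 4009 before normalisation, against 6597 to 7529 on the other 3 arrays, and its image was extracted on a separate occasion. Each value for Ofd2Δ in hypoxia rests on that array, and its part in these values cannot be told apart from the strain and the oxygen level. On every array the median spot of all 34 genes exceeded the 95th percentile of the controls (145 to 158), the lowest lying between 1032 and 1265, and none of their 476 spots was saturated. The deleted gene was not among the targets with a name, and its level was not analysed here.

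Hypoxia left most of these transcripts near their level in normal oxygen in both strains, and the 2 that fell at least 2-fold were mic19 and mic26. The median hypoxia ratio of the 34 genes was 0.987 in wt and 1.02 in Ofd2Δ, beside 1.02 and 1.02 over all 4997 targets. In wt 2 of the 34 genes were at least 2-fold lower in hypoxia (a ratio of at most 0.5), mic19 and mic26, where 0.640% of all targets were. In Ofd2Δ the same 2 genes passed this limit, beside 0.981% of all targets, and 0.460% of all targets passed it in both strains. No gene of the 34 was at least 2-fold higher in wt or in Ofd2Δ, beside 0.160% and 0.440% of all targets. At a limit of 1.5-fold, 2 genes were lower in wt (2.28% of all targets) and 3 in Ofd2Δ (2.80%), the third being mef1, and 0 were higher in either strain (0.780% and 3.22%). The symbols come from gene tables that include lists of genes chosen on these same arrays: mef1, mic19 and mic26 are in those lists, and mic19 is named by them alone. They are therefore not independent evidence of a direction. Without mic19, 1 of the other 33 genes was at least 2-fold lower in each strain, mic26, beside 0.640% and 0.981% of all targets. Among the 1648 targets with a name, 1.52% were at least 2-fold lower in wt and 1.82% in Ofd2Δ.

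**Figure D1:**
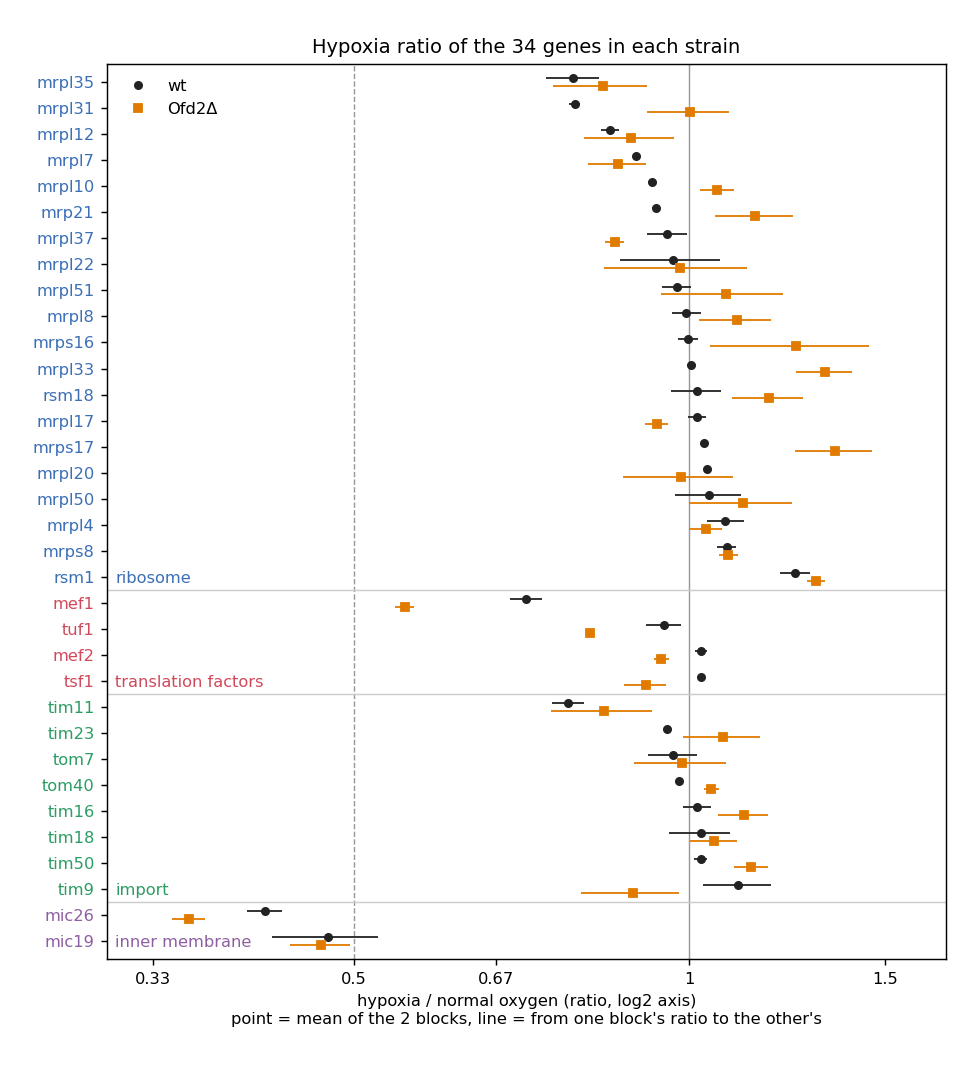
Hypoxia ratio (level in hypoxia over level in normal oxygen, log2 axis) of the 34 genes in wt (circles) and Ofd2Δ (squares), grouped by class, with a line joining the 2 block ratios and a dashed line at 0.5. Only mic19 and mic26 lie below 0.5 in both strains, mef1 lies at 0.714 and 0.555, and the other 31 genes lie between 0.778 and 1.35.

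Transcripts of the mitochondrial ribosome differed little between hypoxia and normal oxygen. In wt the median hypoxia ratio of the 20 ribosome genes was 0.996, with a range from 0.787 to 1.245. There 9 of 20 were above 1, beside 57.2% of all targets. In Ofd2Δ the median was 1.07, the range 0.836 to 1.35, and 13 of 20 were above 1, beside 53.8% of all targets. None of the 20 passed 1.5-fold in either strain. Of all targets 2.28% in wt and 2.80% in Ofd2Δ were lower by that limit, and 0.780% and 3.22% higher. In the value table that the authors deposited 1 of the 20 did pass it, rsm18, a gene of the small subunit. Its ratio there was 1.69 in Ofd2Δ, where 2.26% of all targets were at least 1.5-fold higher. With median scaling of the arrays the highest of the 20 was at 1.77 in Ofd2Δ. Without rsm1 the medians of the other 19 were 0.994 and 1.06.

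From the probe values, the lowest of them in both strains was mrpl35, a gene of the large subunit. Its level was 1898 in wt in normal oxygen, 1491 in wt in hypoxia, 1711 in Ofd2Δ in normal oxygen and 1424 in Ofd2Δ in hypoxia. Both hypoxia values lay below both values in normal oxygen, and the hypoxia ratio was 0.787 in wt (blocks 0.830 and 0.744) and 0.836 in Ofd2Δ (blocks 0.917 and 0.755). It is a dim target, at the 11.2th percentile of level, as are mrpl31 (11.7th) and mrpl33 (6.66th). In Ofd2Δ 6 of its 14 spots were higher in hypoxia and 8 lower, so that its position in that strain was within the spread over spots (SD 0.51 on the log2 scale). In the deposited value table mrpl35 had a ratio of 0.746 in wt, again the lowest of the ribosome genes. In Ofd2Δ it had 0.984 there, and mrpl22 was the lowest at 0.858.

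The highest ribosome gene of wt was rsm1, whose product is not ribosomal. It read 3157 in wt and 3191 in Ofd2Δ in normal oxygen, and 3929 and 4148 in hypoxia. Both strains were higher in hypoxia, with ratios of 1.245 (blocks 1.28 and 1.21) and 1.30 (blocks 1.28 and 1.32), and all 14 spots were higher in wt. In Ofd2Δ 9 of the 14 spots were higher and 5 lower (SD 0.52 on the log2 scale). The Ofd2Δ ratio in the deposited value table was 1.17. The gene rsm1 was the only one of the 34 with every spot higher in wt, beside 6.58% of all targets.

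In Ofd2Δ the highest ratio belonged to mrps17, a gene of the small subunit. Its level was 4798 in wt and 4648 in Ofd2Δ in normal oxygen, 4946 in wt in hypoxia and 6263 in Ofd2Δ in hypoxia. The Ofd2Δ hypoxia array was the single high one, with a ratio of 1.35 (blocks 1.24 and 1.46) against 1.03 in wt (1.03 in both blocks). The 14 spots of that ratio were spread widely (SD 1.52 on the log2 scale), 12 of them higher and 1 of them at 0.0295. In the deposited value table the same Ofd2Δ ratio was 1.05, and the strain ratio in hypoxia was 0.977 against 1.27 from the probe values. The next highest ribosome genes in Ofd2Δ were mrpl33 (1.32), rsm1 (1.30) and mrps16 (1.247), of which mrpl33 and mrps16 had ratios of 1.00 and 0.998 in wt.

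Genes of the large subunit that lay lower in hypoxia in both blocks of both strains included mrpl12, with ratios of 0.849 in wt and 0.887 in Ofd2Δ, and mrpl7, with 0.896 and 0.863. All 14 spots of both genes were lower in wt. In wt 6 of the 34 genes had every spot lower, mrpl12, mrpl7, mef1, tim11, mic19 and mic26, beside 8.06% of all targets. In Ofd2Δ 2 did, mef1 and mic26, beside 2.92%.

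Among the translation factors mef1 stood apart from the others. This gene encodes elongation factor G of mitochondria, the GTPase that moves the ribosome by a codon. The array target is the gene model SPBC409.22c, which RefSeq lists as a synonym of SPBC1306.01c. Its level was 17659 in wt and 17984 in Ofd2Δ in normal oxygen, 12597 in wt in hypoxia and 9984 in Ofd2Δ in hypoxia. Both strains were at a like level in normal oxygen and lower in hypoxia, and the lowest value was that of Ofd2Δ. The hypoxia ratio was 0.714 in wt (blocks 0.690 and 0.737, SD over spots 0.22 on the log2 scale, n = 14 spots) and 0.555 in Ofd2Δ (blocks 0.566 and 0.544, SD 0.31). Every one of its 14 spots was lower in hypoxia in both strains.

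The 7 probes of mef1 gave mean ratios from 0.551 to 0.812 in wt and from 0.417 to 0.653 in Ofd2Δ, and 6 of 7 were lower in Ofd2Δ than in wt. Both block ratios of Ofd2Δ lay below both of wt. The Ofd2Δ ratio divided by the wt ratio was 0.778 (blocks 0.821 and 0.738), which did not reach the 1.5-fold limit used in the study for a difference between the strains. Over the ways of processing that were tried it ran from 0.640 to 0.830, and it passed that limit only in the deposited value table, where mef1 had ratios of 0.695 in wt and 0.445 in Ofd2Δ and so passed 2-fold in Ofd2Δ as well, beside 0.841% of all targets in that table. The study itself lists this gene among those more repressed in Ofd2Δ beyond its limit.

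The other translation factors were closer to 1. For tuf1, the mitochondrial EF-Tu that carries tRNA to the ribosome, levels were 19962 in wt and 20276 in Ofd2Δ in normal oxygen, and 18915 and 16530 in hypoxia. Its hypoxia ratio was 0.948 in wt (blocks 0.914 and 0.982) and 0.815 in Ofd2Δ (0.815 in both blocks), and 13 of its 14 spots were lower in Ofd2Δ. The level of tsf1, the exchange factor of EF-Tu, was 3436 in wt and 3681 in Ofd2Δ in normal oxygen, and 3520 and 3359 in hypoxia. That of mef2, a relative of mef1, was 4007 and 3931 in normal oxygen, and 4104 and 3710 in hypoxia. These levels overlapped between the conditions in both genes, with ratios of 1.02 and 0.914 for tsf1 and 1.02 and 0.944 for mef2. All 4 translation factors had an Ofd2Δ ratio below 1 and below their own wt ratio (median 0.864 against 0.986), but in the deposited value table mef2 and tsf1 lay above 1 in Ofd2Δ, at 1.08 and 1.07, and with median scaling of the arrays at 1.06 and 1.04. In the deposited value table tuf1 lay further below 1 in Ofd2Δ, at 0.723.

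**Figure D2:**
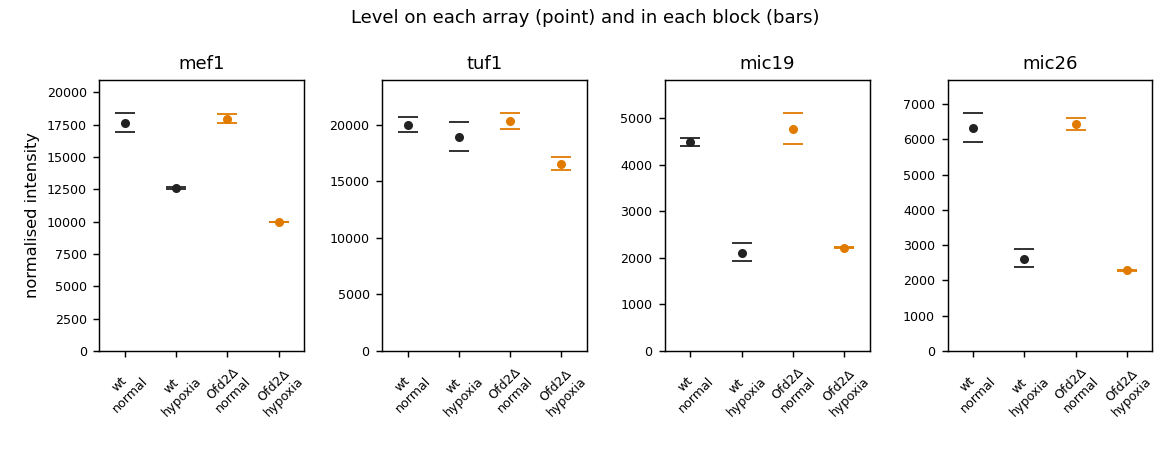
Normalised intensity (linear axis from 0) of mef1, tuf1, mic19 and mic26 on each of the 4 arrays, with a point for the level and bars for the 2 blocks. In mef1, mic19 and mic26 both hypoxia arrays lie below both arrays in normal oxygen, from 17659 and 17984 to 12597 and 9984 in mef1.

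The import genes stayed near their level in normal oxygen as a group. The median hypoxia ratio of the 8 genes was 0.998 in wt, with a range from 0.778 to 1.11, and 1.05 in Ofd2Δ, with a range from 0.838 to 1.14. In either strain 0 of 8 passed 1.5-fold, a limit that few targets passed. Of all targets 2.28% in wt and 2.80% in Ofd2Δ were lower by it, and 0.780% and 3.22% higher. With median scaling the Ofd2Δ median turned to 0.918. Genes of the translocation channels were near 1. For tom40, the channel of the outer membrane, the ratio was 0.980 in wt and 1.05 in Ofd2Δ, and for tim23, the channel of the inner membrane, 0.954 and 1.07. The small TOM subunit tom7 (0.967 and 0.986) and tim16, a regulator of the import motor (1.02 and 1.12), were also close to 1. In the deposited value table, however, tom7 had a ratio of 0.756 in Ofd2Δ, and the last of its 7 probes read 0.312 in Ofd2Δ.

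The highest import gene in Ofd2Δ was tim50, a receptor at the TIM23 channel. Its level was 9788 in wt and 9794 in Ofd2Δ in normal oxygen, 10026 in wt in hypoxia and 11125 in Ofd2Δ in hypoxia. The first 3 values lay close together and the fourth was higher, with a ratio of 1.14 in Ofd2Δ (blocks 1.18 and 1.10) and 1.02 in wt. Of its 14 spots 5 were lower in hypoxia in each strain, and with median scaling the Ofd2Δ ratio turned to 0.952.

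The lowest import gene by symbol was tim11, whose product is counted with the ATP synthase. It read 7891 in wt and 7931 in Ofd2Δ in normal oxygen, and 6137 and 6609 in hypoxia. Both hypoxia values were below both others, the ratio being 0.778 in wt (blocks 0.752 and 0.804, all 14 spots lower) and 0.838 in Ofd2Δ (blocks 0.751 and 0.925, 8 of 14 lower). Without tim11 and tim18 the other 6 import genes had ratios from 0.954 to 1.11 in wt and from 0.890 to 1.14 in Ofd2Δ. In the deposited value table these ranges were wider, 0.949 to 1.16 and 0.756 to 1.44.

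The small chaperone gene tim9, whose product escorts hydrophobic proteins between the membranes, was the highest import gene in wt. Its level was 3205 in wt and 3744 in Ofd2Δ in normal oxygen, and 3537 and 3313 in hypoxia. The conditions overlapped, with a ratio of 1.11 in wt (blocks 1.18 and 1.03) and 0.890 in Ofd2Δ (blocks 0.799 and 0.980). In the deposited value table the Ofd2Δ ratio of tim9 was 1.44, on the other side of 1. The neighbouring gene of tim9, mrpl50, is also among the 34 and was the only such pair. It had ratios of 1.04 and 1.12, and 1.48 in Ofd2Δ in the deposited value table.

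The strongest fall was that of mic19 and mic26, the only genes counted in the inner-membrane class. Both are in the lists of genes chosen on these same arrays, and mic19 is named by those lists alone. The fall of these genes is therefore not independent evidence for a fall of inner-membrane genes as a class. The products of mic19 and mic26 are subunits of MICOS. The level of mic26 was 6307 in wt and 6430 in Ofd2Δ in normal oxygen, and 2618 and 2281 in hypoxia. That of mic19 was 4490 and 4768 in normal oxygen, and 2115 and 2223 in hypoxia. In both genes the hypoxia arrays lay far below the others and the values of the strains lay close together within each condition.

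The hypoxia ratio of mic26 was 0.415 in wt (blocks 0.400 and 0.431, SD over spots 0.15 on the log2 scale) and 0.355 in Ofd2Δ (blocks 0.343 and 0.367, SD 0.34), with all 14 spots lower in each strain. In order of ratio, mic26 stood 14th from the lowest of 4997 targets in wt and 14th in Ofd2Δ. The ratio of mic19 was 0.474 in wt (blocks 0.422 and 0.525, SD 0.21, 14 of 14 spots lower) and 0.467 in Ofd2Δ (blocks 0.438 and 0.496, SD 0.41, 13 of 14 lower), 26th and 42nd from the lowest. One block of mic19 in wt thus lay above 0.5, and mic19 is a dim target, at the 24.0th percentile of level. Over the ways of processing tried the ratio of mic26 ran from 0.388 to 0.431 in wt and from 0.331 to 0.419 in Ofd2Δ, and that of mic19 from 0.422 to 0.529 and from 0.417 to 0.549, so that mic26 stayed below 0.5 in each of them and mic19 did not.

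Probe by probe, mic26 gave ratios from 0.378 to 0.461 in wt and from 0.291 to 0.530 in Ofd2Δ, and mic19 from 0.368 to 0.535 and from 0.410 to 0.690. All 7 probes of both genes were below 1 in both strains. The Ofd2Δ value was the lower one in 5 of 7 probes of mic26 and in 3 of 7 of mic19. Divided by the wt ratio, the Ofd2Δ ratio was 0.855 for mic26 (blocks 0.857 and 0.852) and 0.986 for mic19 (blocks 1.04 and 0.944). Over the ways of processing tried it ran from 0.802 to 1.05 for mic26 and from 0.864 to 1.19 for mic19, with the highest values from median scaling, the only one that put mic26 above 1.

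**Figure D3:**
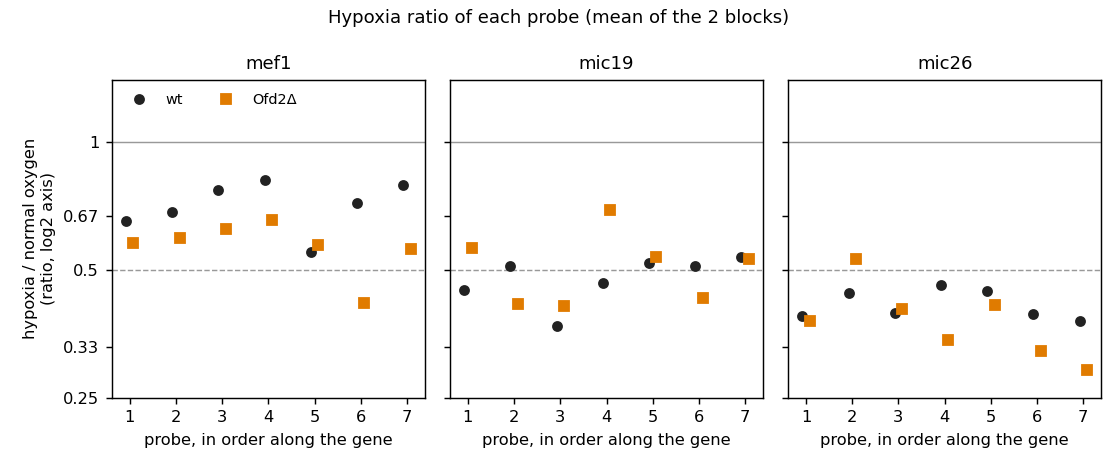
Hypoxia ratio (log2 axis) of each of the 7 probes of mef1, mic19 and mic26, in their order along the gene, as the mean of the 2 blocks in wt (circles) and Ofd2Δ (squares), with a dashed line at 0.5. All 21 probes lie below 1 in both strains, and in mef1 6 of 7 are lower in Ofd2Δ.

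Between the strains no gene of the 34 passed the 1.5-fold limit for the difference of the hypoxia ratio, beside 2.60% of all targets. At a lower limit, 0.3219 on the log2 scale, 4 did, beside 13.7%: mef1 was lower in Ofd2Δ, and mrpl33 (1.32), mrps17 (1.31) and mrpl31 (1.27) were higher. The median difference was 1.05 over the 34 genes and 1.01 over all targets. By class it was 1.07 for the ribosome, with 15 of 20 above 1, 0.876 for the translation factors, with 4 of 4 below 1, and 1.07 for import, with 7 of 8 above 1. Over all targets 51.7% were above 1. In the deposited value table these medians were 1.11, 0.920 and 1.06, with 2 of 4 translation factors below 1, and with median scaling they were 1.06, 0.875 and 0.922, again with 2 of 4 below 1. Import genes above 1 numbered 5 of 8 as deposited and 3 of 8 with median scaling, and ribosome genes 16 of 20 and 15 of 20. In that deposited table, 3 genes passed the 1.5-fold limit, beside 1.60% of all targets: mrpl31 (1.78), rsm18 (1.71) and mef1 (0.640). There mrpl33 (1.15) and mrps17 (1.01) did not reach even the lower limit. From the probe values mrpl31 had hypoxia ratios of 0.789 in wt and 1.00 in Ofd2Δ, and rsm18 1.02 and 1.18.

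**Figure D4:**
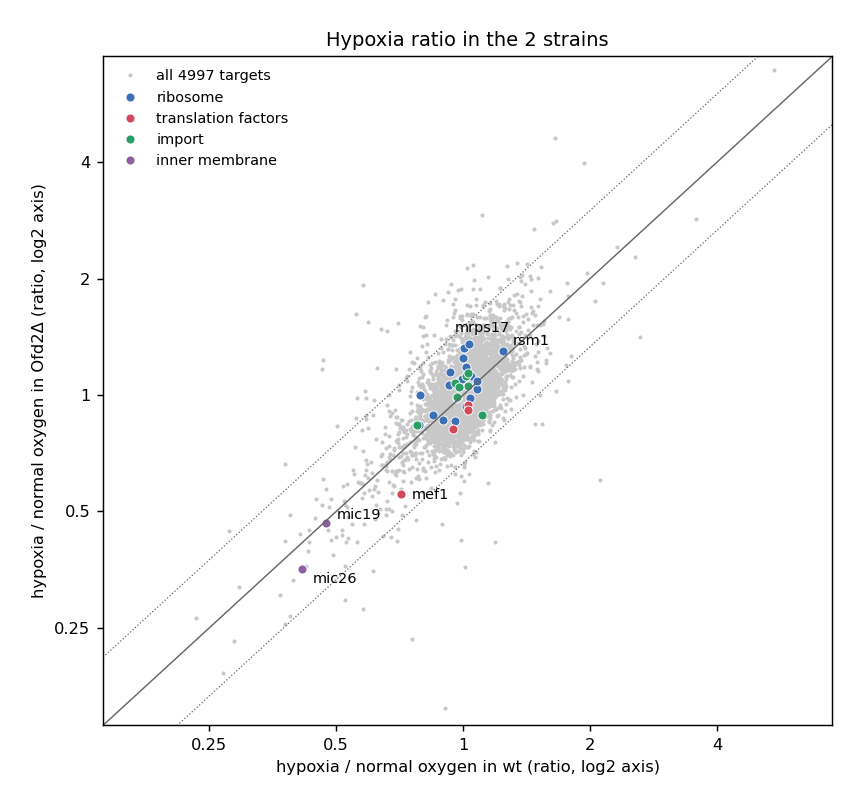
Hypoxia ratio in Ofd2Δ against that in wt (both log2 axes) for all 4997 targets (grey) and the 34 genes by class, with the line of equal ratios and dotted lines at a 1.5-fold difference. All 34 genes lie between the dotted lines, with mef1 at 0.714 and 0.555 and mic26 at 0.415 and 0.355.

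The strains hardly differed in normal oxygen and were more spread in hypoxia. In normal oxygen the strain ratio of the 34 genes had a median of 1.00 and ran from 0.902 (mrpl35) to 1.19 (mrpl22), and 0 of 34 passed 2-fold or 1.5-fold, beside 0.100% and 0.300% of all targets. The 2 blocks lay on opposite sides of 1 for 20 of the 34 genes. The gene tom7 was higher in Ofd2Δ in all 14 spots (ratio 1.15, blocks 1.13 and 1.17), which 0.180% of all targets were. In hypoxia the median strain ratio was 1.06 and the range 0.793 (mef1) to 1.31 (mrpl33), again with 0 genes past 2-fold or 1.5-fold, beside 0.320% and 2.32% of all targets. The strain ratio of mef1 went from 1.02 in normal oxygen to 0.793 in hypoxia, and in hypoxia both its blocks were at 0.789 and 0.796. All 4 translation factors were below 1 in hypoxia (median 0.890), while 15 of 20 ribosome genes (median 1.08) and 6 of 8 import genes (median 1.08) were above it, beside 50.6% of all targets. As deposited by the authors, 2 of 4 translation factors were below 1 in hypoxia, and 15 of 20 ribosome genes and 4 of 8 import genes were above it. With median scaling these counts were 3 of 4, 13 of 20 and 4 of 8. The larger spread came with a larger technical one: the median difference between the blocks of a gene was 0.09 on the log2 scale in normal oxygen and 0.16 in hypoxia.

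**Figure D5:**
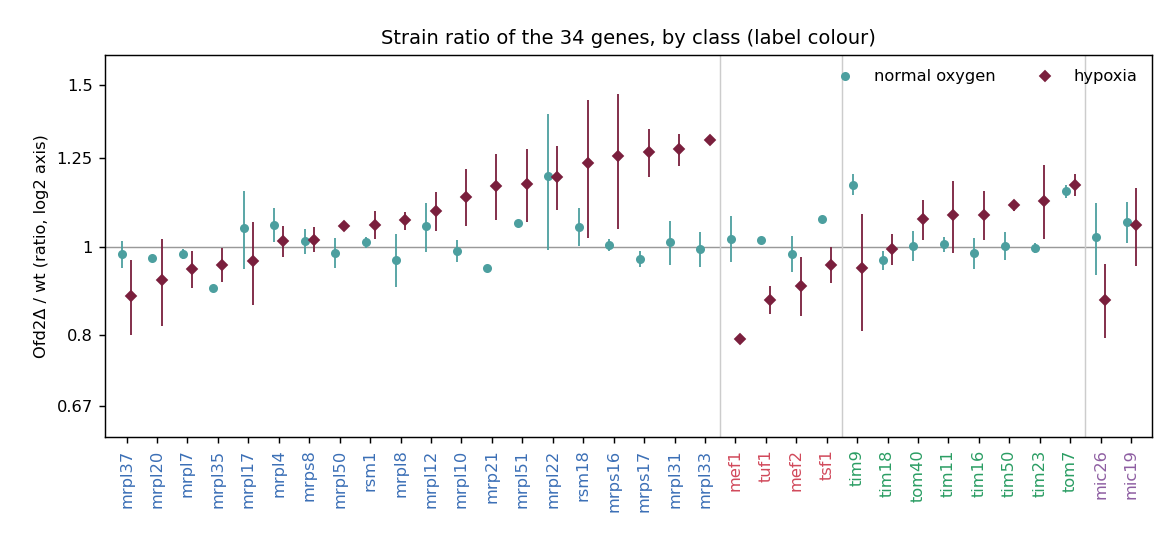
Strain ratio (Ofd2Δ over wt, log2 axis) of the 34 genes in normal oxygen (circles) and in hypoxia (diamonds), by class, with a line joining the 2 block ratios. In normal oxygen the ratios run from 0.902 to 1.19 and in hypoxia from 0.793 (mef1) to 1.31 (mrpl33).

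Other genes of these pathways were taken from lists of symbols. Of 43 further genes of mitochondrial translation, among them tRNA synthetases and RNA-binding proteins of the PPR family, 12 were targets with a name. Their median hypoxia ratio was 1.01 in wt and 1.00 in Ofd2Δ, and 0 of 12 passed 1.5-fold, where 2.28% and 2.80% of all targets were lower and 0.780% and 3.22% higher by that limit, the lowest being trz2, of tRNA end processing, at 0.755 and 0.698. Of 28 genes of import and protein processing 7 were named targets, with medians of 1.00 and 1.03. One of the 7, qcr1, a core protein of respiratory complex III related to the processing peptidase, was lower by over 1.5-fold in both strains (0.624 and 0.601), and 1, mdm12, of the contact sites between mitochondria and the endoplasmic reticulum, was higher by that limit in Ofd2Δ (1.63, and 1.45 in wt, at the 20.2th percentile of level), but not in the deposited value table (1.22). The gene qcr1 is also in a list chosen on these arrays.

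Of 15 genes of inner-membrane organisation 3 were named targets. For phb2, a prohibitin, the ratios were 1.05 and 1.06, and for yme1, a protease of the inner membrane, 0.949 and 0.894. The gene ups2, which in budding yeast acts in lipid transfer between the mitochondrial membranes, fell to 0.657 of its level in normal oxygen in wt and to 0.507 in Ofd2Δ. Both were past 1.5-fold, beside 2.28% and 2.80% of all targets. In the deposited value table its ratios were 0.598 in wt and 0.624 in Ofd2Δ, so that wt was the lower one there. The genes next to mef1 and mic26 that had a named target were near their level in normal oxygen: sec66 (1.02 and 0.990) and trm734 (0.888 and 1.15) beside mef1, and pre8 (1.10 and 0.938) beside mic26.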

How the data were processed

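The authors deposited the intensity of every probe (linear scale, Cy3, extracted with NimbleScan 2.4.31, before background correction or normalisation) and a value table of normalised intensity in whole numbers, which gives each target 1 value in each of 2 blocks. The submitters' processing notes name RMA for it and give no version. The medians of its columns are 5446.5 and 5378.5 for wt and Ofd2Δ in normal oxygen and 5440 and 5725.5 in hypoxia. Its scaling between arrays beyond RMA is not given in the sources used here. Ratio columns of the paper's gene table hold the authors' own comparisons and were not used.

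From the probe intensities the RMA background was fitted on gene and control spots together (background means 150 to 160 per array; on gene spots alone they ran from 218 to 1834). Arrays were quantile-normalised, and a median polish over the 4 arrays gave 1 level for each target in each block. The rows of the value table follow the order of the targets, which held for 1694 of 1694 targets with values to compare. Across the 4997 targets the 2 sources correlated at 0.986 to 0.998 on the log2 scale.

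Calls used 2-fold for ratios and 1.5-fold between strains. Systematic names came from the paper's gene tables, held in part, and symbols from RefSeq ASM294v3. The members, the lists and the rule for named genes were chosen with earlier results of these data known. The rule gave values on all arrays for mef1, mic26, members past 1.5-fold, and the highest and lowest member of each class in each strain, and tuf1 and tim18 were added after their values were seen. Alternatives changed the background, scaling, probe summary, block, dim-target filter, source of values, membership and thresholds. The scripts were tested on simulated data. Software was R 4.3.3 with limma 3.58.1 (for the alternative background) and Python 3.11.15 with scipy 1.17.1, numpy 2.4.6, matplotlib 3.10.9 and pandas 2.3.3. The number of arrays, 1 per condition, limits the precision.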

Additional observations from a re-analysis of the deposited data

Results flagged for a closer look

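Each of these 4 results lay on opposite sides of 1 in the strains, in both blocks of each, and none of the differences was tested. The median hypoxia ratio of the 8 import genes was 0.998 in wt and 1.05 in Ofd2Δ, a quotient of 1.05. In the deposited value table these medians were 1.01 and 1.06, both above 1, and with median scaling the Ofd2Δ median was 0.918.

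The translation factor gene mef2 had ratios of 1.02 in wt and 0.944 in Ofd2Δ, a quotient of 0.921. For tsf1 they were 1.02 and 0.914, a quotient of 0.892. Both genes lay on the other sides of 1 in the deposited value table, with 0.960 and 1.08 for mef2 and 0.983 and 1.07 for tsf1. The small chaperone gene tim9 had 1.11 and 0.890, a quotient of 0.804, and 1.16 and 1.44 in the deposited value table.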

How the results depend on the processing

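The medians of the 34 genes in the 5 comparisons moved by less than the technical spread of a single gene under every alternative run (52 of 52). That spread was 0.0596 to 0.125 on the log2 scale. A median over 34 genes varies less than a single gene does, so staying within it says little. The medians of the classes were not part of this check, and that of import in Ofd2Δ went from 1.05 to 0.918 with median scaling. No gene past a limit changed its direction. Of 57 alternatives for the counts of genes past a limit, 10 changed the count. In Ofd2Δ the count of 2 became 3, with mef1, in the deposited value table and at 1.5-fold. In wt the count of 2 became 1 with block 2 alone, with dim targets left out, and with normalisation over the 3 arrays extracted on 1 occasion, and mic26 was the gene left each time. In Ofd2Δ it became 1 (mic26) with median scaling and with dim targets left out, of which mic19 is 1. The count of 0 for the difference between the strains became 4 at a lower limit of 0.3219 on the log2 scale, 2 with median scaling (mrpl31 and mrpl33) and 3 in the deposited value table. Of 552 alternatives for single named genes 4 moved a ratio by more than 1 SD over its 14 spots, which is wide for some genes (mrps17). These 4 were all in the deposited value table, mef1 in Ofd2Δ (0.445) and tim9 in 3 comparisons (1.44 in Ofd2Δ). In 61 of the 552 a ratio fell on the other side of 1, 21 of them in the deposited value table and 15 with median scaling. The cause was not tested. Over all targets, 32 were 2-fold lower and 8 higher in wt (29 and 25 in the deposited table), 49 and 22 in Ofd2Δ (46 and 121 with median scaling), and 33 and 97 were past the limit between the strains (246 and 434 with median scaling). The background fitted on gene spots alone and the normalisation over 3 arrays were chosen after seeing the data. No paired analysis was possible because each condition has 1 array, and for the same reason no replicate could be left out.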

Other observations

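In tim18, an abundant transcript with sdh4 as a synonym, the first of 7 probes stood apart from the others, a feature chosen after its values were seen. Its spots read 234 and 243 in wt and 178 and 206 in Ofd2Δ in normal oxygen before any correction, and 496 and 425 in wt and 607 and 528 in Ofd2Δ in hypoxia. The 95th percentile of the control spots lay between 145 and 158. The signal was thus low on all 4 arrays, and higher in hypoxia in both blocks of both strains. After background correction and normalisation the hypoxia ratio of this probe was 4.67 in wt and 8.95 in Ofd2Δ, while the 6 other probes ran from 0.896 to 1.15 and from 0.650 to 1.31. In wt it was the only one of 4997 targets with a probe at least 2.5-fold above the target's median ratio in both blocks, and in Ofd2Δ it was 1 of 6 such targets. The background means (150 to 160) were near the reading of these spots in normal oxygen, so the size of both ratios depends on the background step. The count was made under the main processing only. The gene itself had ratios of 1.02 and 1.05, and its neighbour qcr1 0.624 and 0.601.

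Single spots also deviated in 3 ribosome genes, in 1 block each. A spot of mrpl51 and one of mrps17 read 0.0290 and 0.0295 of their level in normal oxygen in Ofd2Δ, and a spot of mrpl20 read 4.51 in wt.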
